A study of Mus musculus with 3 samples.

Results

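Foxp3+ cells without Klrg1 and with at least 1 of 5 further genes were counted in the thymus. They made up 7.20% of the cells kept from mice with bone marrow transplantation (BMT) alone. In mice with graft-versus-host disease (GvHD) they made up 7.97%. They are called Klrg1-negative Foxp3+ cells below. The cells were chosen by their own transcript counts of Foxp3, Klrg1 and 5 further genes. A cell was taken when it had at least 1 unique molecular identifier (UMI, a tag that counts each captured transcript once) of Foxp3, 0 UMIs of Klrg1 and at least 1 UMI of Il2ra, Il1r2, Utf1, Tnfrsf4 or Tnfrsf9. This gave 873 of 11527 filtered cells after BMT, 430 with BM only and 443 with BM + Spl. Another 468 Foxp3+ cells carried Klrg1 (191 and 277) and 53 had none of the 5 genes (27 and 26). The series held 15961 filtered cells in all. Since the values of Foxp3, Klrg1 and the 5 genes chose the cells, those 7 genes are described and not compared as findings.

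Regulatory T cells are CD4+ T cells that restrain other lymphocytes, and the transcription factor Foxp3 holds their program in place. Most arise in the thymus from thymocytes with self-reactive receptors, and interleukin-2, bound by a receptor whose alpha chain is Il2ra, keeps them alive by way of STAT5. Some mature regulatory T cells circulate back to the thymus, and Klrg1, an inhibitory receptor that binds cadherins, is known on differentiated effector regulatory T cells. The TNF receptor family members Tnfrsf4 (OX40) and Tnfrsf9 (4-1BB) are costimulatory receptors, and Il1r2 is a decoy receptor that takes up interleukin-1 without signalling.

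The study followed the recovery of invariant natural killer T (iNKT) cells, which read lipids on CD1d. Magnetic beads removed CD8+ cells from the thymocytes, a sorter gated on NK1.1- CD24- cells that were TCRβ+ and bound the CD1d tetramer, and these were sequenced on the 10x Genomics platform, with 1 library per group. BM only recipients, labelled Non-GVHD, were hybrid F1 offspring (C57BL/6 and BALB/c), given a lethal dose of radiation and then C57BL/6 marrow depleted of CD3+ T cells. BM + Spl recipients, labelled GVHD, were given C57BL/6 splenic cells as well. Both BMT groups were taken at 16 weeks of age, 9 weeks after BMT, and the C57BL/6 mice without BMT at 7 weeks. Cells from the marrow, from the splenic graft and from the host cannot be told apart here.

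With 1 library per condition there was no replicate check and no test. Each share is given with its exact binomial (Clopper-Pearson) interval, each level with its exact Poisson interval and each ratio of levels with its exact conditional binomial interval, all at 95% and covering counting error only. Levels are CPM, in which the UMIs of a gene are summed over the cells of a group and scaled to a common total for all groups. A gene is counted as higher or lower where its level differed by more than 2-fold.

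The BM only library held 35041153 UMIs over 5986 barcodes and the BM + Spl library 43383960 over 5573, of which 5970 and 5557 passed the filter. The Klrg1-negative Foxp3+ cells had a median of 4901.5 UMIs and 1991.5 genes with BM only and of 7049 UMIs and 2537 genes with BM + Spl. Cells of the BM + Spl library were thus deeper, as they were among Foxp3-negative T cells (medians of 4720 and 6522 UMIs). Both BMT libraries shared 43 barcodes. Over both libraries together 2 Klrg1-negative Foxp3+ cells carried such a barcode, but 0 barcodes were a Klrg1-negative Foxp3+ cell in both.

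A few of the genes that set these cells apart carry a short motif before their start. The motif TTCNNNGAA, which reads the same on both strands and is the core letters known for STAT proteins, was searched in the 250 bases before each RefSeq start (build GRCm38.p6). It occurred in 2306 of 32851 promoters (7.02%). Of the 7 genes of the rule 6 had a promoter in the table, 8 promoters in all, and 3 genes (Foxp3, Il1r2 and Tnfrsf9) held the motif in 1 promoter each. These 3 promoters are shown because they stand before the genes that chose the cells, with the motif in capitals. They lie on the plus strand at chrX:7580233-7580482 (Foxp3), chr1:40085843-40086092 (Il1r2) and chr4:150927749-150927998 (Tnfrsf9). The other start of Foxp3, the other start of Tnfrsf9, Il2ra, Tnfrsf4 and Utf1 had no match of these letters in the window. A match is a description of the letters and not a bound site.
Foxp3: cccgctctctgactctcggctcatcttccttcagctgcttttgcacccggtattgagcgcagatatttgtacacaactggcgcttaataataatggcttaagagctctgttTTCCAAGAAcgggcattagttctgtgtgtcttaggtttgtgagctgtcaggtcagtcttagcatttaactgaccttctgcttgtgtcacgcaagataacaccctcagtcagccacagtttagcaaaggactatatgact
Il1r2: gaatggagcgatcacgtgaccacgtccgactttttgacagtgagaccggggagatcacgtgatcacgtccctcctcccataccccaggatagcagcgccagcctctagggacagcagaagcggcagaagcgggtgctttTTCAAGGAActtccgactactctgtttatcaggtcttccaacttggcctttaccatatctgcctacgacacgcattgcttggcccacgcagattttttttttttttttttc
Tnfrsf9: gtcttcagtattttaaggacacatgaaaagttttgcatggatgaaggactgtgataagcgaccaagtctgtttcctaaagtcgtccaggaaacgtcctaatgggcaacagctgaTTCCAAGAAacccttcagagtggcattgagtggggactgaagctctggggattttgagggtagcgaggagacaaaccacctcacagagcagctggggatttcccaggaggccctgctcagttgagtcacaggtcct

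Klrg1-negative Foxp3+ cells took a similar share of both BMT libraries, whereas Foxp3+ cells with Klrg1 took more of the BM + Spl library. The former were 7.20% (6.56 to 7.89) of the 5970 cells with BM only and 7.97% (7.27 to 8.72) of the 5557 cells with BM + Spl, which is 0.15 (-0.04 to 0.33) as a log2 ratio. For the latter the shares were 3.20% (2.77 to 3.68) with BM only and 4.98% (4.43 to 5.59) with BM + Spl, or 0.64 (0.38 to 0.90) on the log2 scale. Of all Foxp3+ cells, 70.5% (66.8 to 74.0) lacked a Klrg1 UMI with BM only and 62.9% (59.3 to 66.3) with BM + Spl. These shares include the cells with none of the 5 genes. With every cell thinned to 2000 UMIs, which left out 541 and 256 shallower cells, the shares of Klrg1-negative Foxp3+ cells were 5.08% and 5.30%, with a log2 ratio of 0.06 (-0.17 to 0.29), and the Klrg1+ ratio was 0.61 (0.25 to 0.96). Among the 4434 cells of the C57BL/6 library, 3 had a Foxp3 UMI and 1 met the rule (0.0226%).

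**Figure D1:**
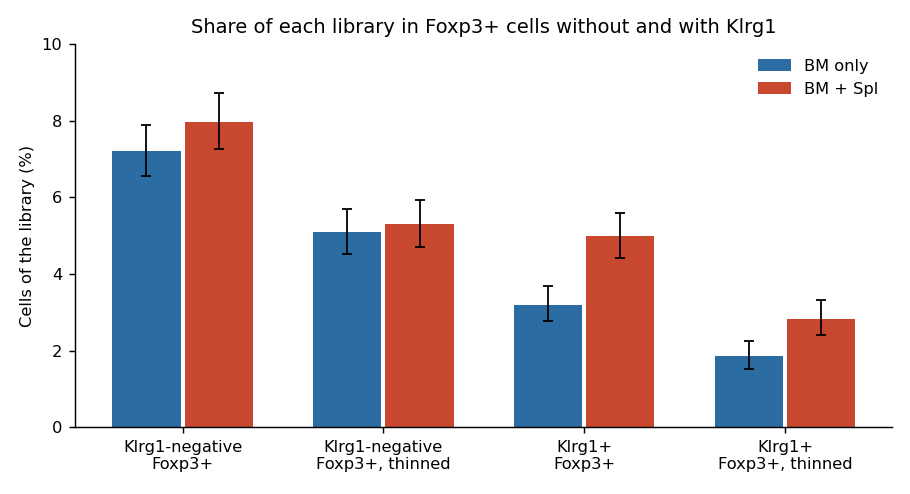
Share of the cells of each BMT library (%, vertical axis) that were Foxp3+ without or with Klrg1, as deposited and with each cell thinned to 2000 UMIs. Klrg1-negative cells are those that also had at least 1 of the 5 further genes of the rule. Bars are shares of 1 library each and error bars are exact binomial 95% intervals. The blue and red bars of Klrg1-negative cells have overlapping intervals (7.20% and 7.97%), while those of Klrg1+ cells lie apart (3.20% and 4.98%).

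Foxp3 UMIs were rare, though not absent, in cell types that should lack it. Foxp3 was detected in 1 of 68 B cells (Cd79a and Cd79b without Cd3, median of 6174.5 UMIs) and 1 of 163 Siglech+ cells without Cd3 (6123 UMIs) with BM only, and in 0 of 45 (8003 UMIs) and 1 of 320 (6494.5 UMIs) with BM + Spl. The exact interval of the 0 of 45 reaches 7.87%, and 3 counts would be 6.67%. Among cells with a UMI of Trav11 or Trav11d, the V alpha segment of invariant NKT cells, Foxp3 was detected in 1 of 102 (0.980%, 0.0248 to 5.34) and 2 of 46 (4.35%, 0.531 to 14.8), with medians of 5967.5 and 10505 UMIs. Nearly every Klrg1-negative Foxp3+ cell was a T cell, with a CD3 UMI in 428 of 430 and 442 of 443 cells.

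The 7 genes of the rule were detected at different depths in these cells. Foxp3 (chrX:7573644-7595245) was at 447 CPM (423 to 473) with BM only and 386 CPM (367 to 405) with BM + Spl, with a median of 2 and 3 UMIs per cell and a highest cell of 13 and 20. Only 1 Foxp3 UMI was found in 128 and 103 cells, and 4 or more in 115 and 180 cells. Tnfrsf4 (chr4:156013843-156016612) was the most abundant, at 1415 CPM (1370 to 1460) and 1428 CPM (1393 to 1465), and was detected in 402 and 420 cells.

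Tnfrsf9 (chr4:150914562-150946102) followed at 532 CPM (505 to 560) and 606 CPM (583 to 630). Il2ra (chr2:11642807-11693193) was at 330 CPM (309 to 352) and 402 CPM (383 to 421), and found in 252 and 327 cells. Il1r2 (chr1:40074079-40125231) was at 456 CPM (431 to 482) and 302 CPM (286 to 319), in 253 and 242 cells. Utf1, a chromatin-linked factor known from pluripotent cells, was detected in 61 and 79 cells, at 51.0 CPM (42.9 to 60.2) and 49.7 CPM (43.2 to 56.9). No more than 24 and 48 cells had all 5 genes, and 50 and 43 had a single one of them.

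The edges of the rule differed in what they held. Just inside it were 21 and 22 cells with 1 Foxp3 UMI and 1 of the 5 genes, in which Ctla4 was at 485 and 305 CPM. Just outside were the 27 and 26 Foxp3+ cells with none of the 5 genes, with Ctla4 at 168 and 128 CPM and Zbtb16, the factor PLZF of iNKT cells, at 114 and 195 CPM. Cells with 1 Klrg1 UMI, 71 and 58 in number, had Il1rl1 at 67.9 and 43.0 CPM, against 106 and 73.7 CPM in cells with more Klrg1 and 24.4 and 14.4 CPM in Klrg1-negative ones. A further 107 and 284 T cells had 0 UMIs of Foxp3, 0 UMIs of Klrg1 and 3 or more of the 5 genes. Ctla4 was at 332 and 203 CPM in these cells, and whether Foxp3 was missed in them was not tested.

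Against the Foxp3-negative T cells of the same sort, the Klrg1-negative Foxp3+ cells had higher regulatory T cell genes in both libraries and lower Zbtb16, Il4 and natural killer receptor genes. This contrast is fixed by the rule, so its values are a description. Of 12657 genes measured, 656 (5.18%) were higher and 609 (4.81%) were lower in both libraries, or 9.99% either way. The regulatory T cell core list without the genes of the rule had 22 measured genes, of which 15 were higher and 0 lower in both libraries, with median log2 ratios of 2.22 (BM only) and 1.92 (BM + Spl). The medians over all genes were 0.075 and -0.00052.

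Ctla4 (chr1:60887000-60915832), the receptor that takes CD80 and CD86 off antigen-presenting cells, was at 442 CPM (417 to 468) and 397 CPM (379 to 417), against 26.3 and 67.9 CPM in Foxp3-negative T cells. Ikzf2 (Helios), a factor of thymic regulatory T cells, was at 538 CPM (511 to 566) and 487 CPM (466 to 508), against 85.5 and 88.7 CPM. Tnfrsf18 (GITR), a costimulatory receptor, reached 708 CPM (677 to 740) and 676 CPM (652 to 702), against 127 and 156 CPM. Each of these genes was detected in most of the cells, Ikzf2 in 374 and 396 and Tnfrsf18 in 382 and 422.

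Tigit, an inhibitory receptor for CD155, was at 326 CPM (305 to 349) and 343 CPM (326 to 361), and Ikzf4 (Eos), a partner of Foxp3, at 85.3 CPM (74.7 to 96.9) and 65.5 CPM (58.0 to 73.7). Lrrc32 (GARP), which holds latent TGF-beta at the surface, was at 23.7 CPM (18.3 to 30.2) and 44.0 CPM (37.9 to 50.8), against 0.976 and 2.37 CPM. Nrp1, used as a marker of thymus-derived regulatory T cells, was at 122 and 95.8 CPM against 41.0 and 71.6 CPM, and Izumo1r (folate receptor 4) at 368 and 333 CPM against 237 and 365 CPM. Neither Nrp1 nor Izumo1r was more than 2-fold higher in both libraries.

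The genes that stood highest over Foxp3-negative T cells included several known from regulatory T cells. Flicr, a noncoding RNA next to Foxp3, was at 31.0 CPM (24.7 to 38.3) and 20.8 CPM (16.7 to 25.6), against 0.348 and 0.918 CPM. Frmd5, a cytoskeletal adaptor, was at 31.3 and 52.0 CPM against 0.976 and 1.66 CPM, and Neb, which encodes the muscle protein nebulin, at 61.2 and 46.8 CPM against 2.89 and 2.16 CPM. Dgat2, an enzyme of triglyceride synthesis, Tnfrsf8 (CD30), a receptor of the TNF family, and Gpr15, a homing receptor of the large intestine, stood at 17.9, 34.6 and 19.7 CPM with BM only and at 30.3, 15.1 and 17.0 CPM with BM + Spl. All 3 were at 1.60 CPM or less in Foxp3-negative T cells.

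Several suppression genes stood above Foxp3-negative T cells too. Of 19 measured suppression genes 8 were higher (Ctla4, Ebi3, Havcr2, Il10, Itgb8, Lrrc32, Penk and Tigit) and 0 lower, with medians of 1.13 and 1.48. Of 30 effector and tissue genes 13 were higher and 2 lower (Cxcr6 and Id2), with medians of 1.31 and 0.97. Prdm1 was at 59.8 and 30.7 CPM against 4.88 and 2.99 CPM, and Ccr8 at 198 and 222 CPM against 59.3 and 66.9 CPM. The IL-1 family list was divided, with 2 of 8 measured genes higher (Il1rl1 and Il1rn) and 2 lower (Il1r1 and Il1rl2), and medians of -0.47 and -0.10.

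IL-2 receptor and STAT5 genes had 3 of 14 higher (Cish, Pim1 and Socs2) and 0 lower. Cish, a feedback inhibitor that STAT5 induces, was at 192 CPM (176 to 209) and 164 CPM (152 to 177), against 34.9 and 52.2 CPM. Of 24 TNF receptor and NF-kB genes 7 were higher and 1 lower (Cd40lg), with Traf1, an adaptor of TNF receptors, at 196 and 208 CPM against 58.9 and 77.2 CPM. TCR response genes ran both ways, with Ikzf2 higher and Egr1, Egr2 and Egr3, early factors after receptor engagement, lower.

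Resting and central genes were lower more often than higher. Of 18 measured, 5 were lower (Ccr9, Id3, Lef1, Satb1 and Tcf7) and 2 higher (among them Il6st), with medians of -0.80 and -0.71. Igfbp4, a binding protein of insulin-like growth factors, was at 4.01 and 14.9 CPM against 285 and 406 CPM in Foxp3-negative T cells. The type 2 cytokine Il13 was at 1.09 and 0.71 CPM against 23.6 and 36.3 CPM.

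Tff1 (chr17:31161395-31165277), a secreted trefoil peptide of mucosal surfaces, was higher than in Foxp3-negative T cells. It was at 899 CPM (864 to 935) and 314 CPM (297 to 331) in Klrg1-negative Foxp3+ cells, at 1019 and 314 CPM in Klrg1+ ones and at 19.9 and 28.4 CPM in Foxp3-negative T cells. Both Foxp3+ groups thus held the transcript well above the rest of the sort. Its UMIs lay in 281 and 191 Klrg1-negative cells, with no more than 3.02% in any cell.

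Genes of the iNKT program were lower in their summed level with BM only but not with BM + Spl. The 19 genes summed to 1472 CPM with BM only against 3239 CPM in Foxp3-negative T cells, and to 1738 against 1474 CPM with BM + Spl, with median log2 ratios of -2.36 and -0.64. Nkg7 (130 against 758 CPM, then 339 against 205 CPM) and Ccl5 (344 against 671 CPM, then 546 against 214 CPM) were on opposite sides in the libraries. Of the 19 measured genes, 8 were lower in both libraries (Cd160, Il17rb, Il4, Klrb1c, Klrc1, Klrd1, Klrk1 and Zbtb16) and 1 was higher (Slamf1, a self-ligand receptor of activated T cells). Zbtb16 was at 10.2 CPM (6.78 to 14.7) and 16.3 CPM (12.7 to 20.7), against 169 and 205 CPM in Foxp3-negative T cells. Il4 stood at 3.64 and 5.20 CPM against 52.6 and 86.8 CPM, and Klrd1 (CD94), a natural killer receptor chain, at 33.5 and 35.5 CPM against 259 and 95.3 CPM. Cd4 was at 140 and 114 CPM against 60.7 and 126 CPM, and Cd8a at 21.1 and 29.8 CPM, in 12 and 28 cells.

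**Figure D2:**
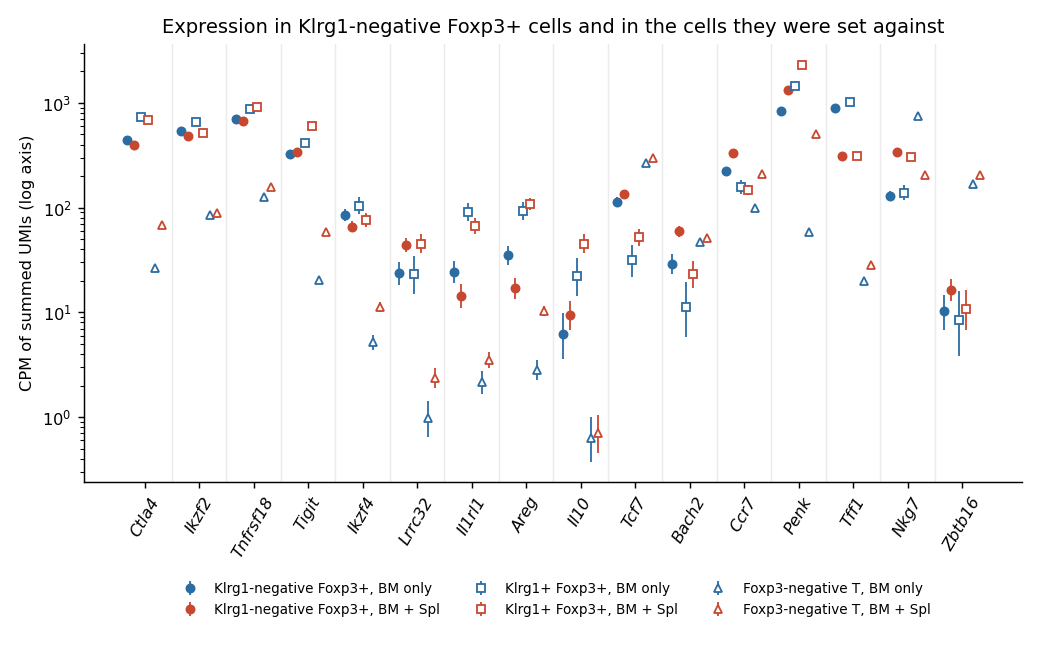
Level of 16 genes (CPM of summed UMIs, log axis) in Klrg1-negative Foxp3+ cells (filled circles), Klrg1+ Foxp3+ cells (squares) and Foxp3-negative T cells (triangles) of the BM only (blue) and BM + Spl (red) libraries. Bars are exact Poisson 95% intervals. Ctla4, Ikzf2 and Tnfrsf18 lie far above the triangles and Zbtb16 far below them, while Il1rl1, Areg and Il10 lie between squares and triangles in both libraries.

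The receptors of these cells also differed from those of the sort. A V beta segment was called where it held at least 80% of a cell's V beta UMIs, and Trbv12-2 and Trbv13-2 were counted together. V beta usage played no part in the rule. The set taken for iNKT cells was Trbv1, Trbv13-1, Trbv13-2, Trbv13-3 and Trbv29. Cells with Trbv12-2 fell into it too, as that segment was counted with Trbv13-2. A segment of this set was called in 92 of 326 Klrg1-negative Foxp3+ cells with BM only (28.2%, 23.4 to 33.4). With BM + Spl it was called in 106 of 355 (29.9%, 25.1 to 34.9). In Foxp3-negative T cells the shares were 85.5% (84.4 to 86.6) and 65.7% (64.1 to 67.2), and in Klrg1+ Foxp3+ cells 32.2% (24.6 to 40.5) and 25.4% (19.4 to 32.1). Both Foxp3+ groups were thus far from the rest of the sort in both libraries.

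Trbv5 was the most used segment, in 65 of 326 cells (19.9%, 15.7 to 24.7) and 56 of 355 (15.8%), against 3.50% and 5.22% of Foxp3-negative T cells. Trbv20 followed with 8.90% (6.04 to 12.5) and 11.3% (8.17 to 15.0), against 0.856% and 2.37%. Trbv12-2 and Trbv13-2, counted together, were found in 7.36% (4.77 to 10.8) and 10.1% (7.20 to 13.8), against 41.4% and 27.8%. In all, 19 and 20 segments were in use. Trav11, the V alpha segment of the invariant chain, had a UMI in 1 Klrg1-negative Foxp3+ cell of each library (0.233% and 0.226%), against 2.05% and 1.01% of Foxp3-negative T cells. The cells were sorted with the CD1d tetramer and labelled NKT. Neither their V beta usage nor their Zbtb16 level was that of the Foxp3-negative T cells beside them. They are called regulatory T cells here by their Foxp3 and by Il2ra, Il1r2, Utf1 and Tnfrsf4.

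**Figure D3:**
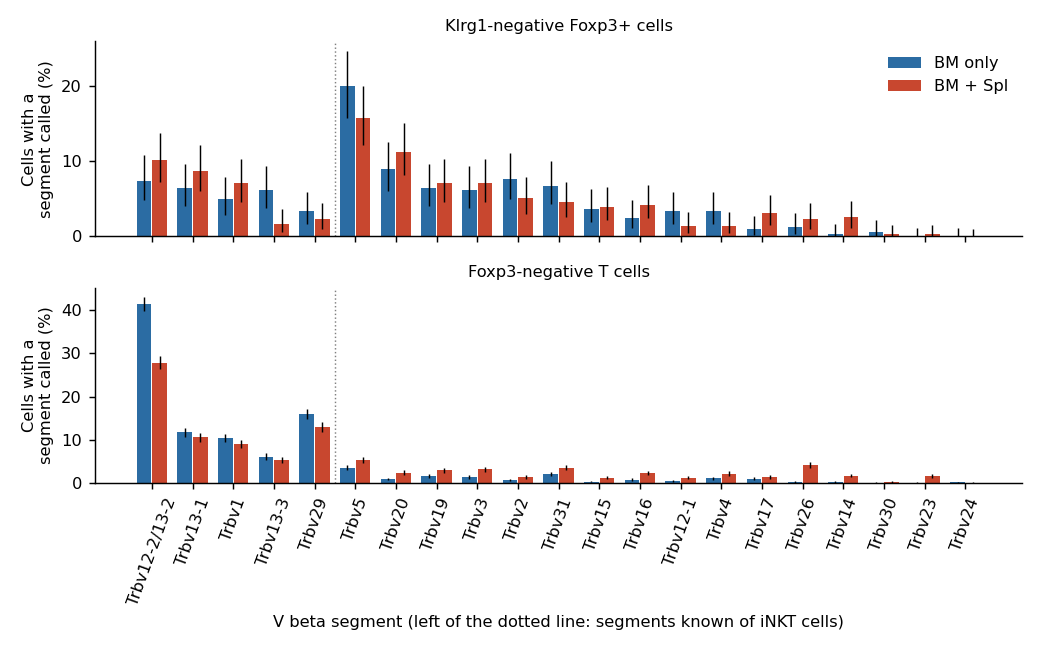
Share of cells with a called V beta segment (%, vertical axis) that used each segment, in Klrg1-negative Foxp3+ cells (top) and Foxp3-negative T cells (bottom) of the BM only (blue) and BM + Spl (red) libraries, with exact binomial 95% intervals. Segments known of iNKT cells are left of the dotted line and dominate the lower panel, whereas Trbv5 is the highest in the upper one (19.9% and 15.8%).

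Klrg1-negative Foxp3+ cells with an iNKT segment were set beside those with another segment. Foxp3 was at 458 CPM in the former and 474 CPM in the latter with BM only. With BM + Spl it was at 378 and 396 CPM. Foxp3 chose all of these cells, so its values are a description. Zbtb16 was higher in cells with an iNKT segment, at 9.67 against 1.36 CPM and at 29.0 against 3.12 CPM, from UMIs in 4 and 7 cells. Xcl1, a chemokine of NKT1 and CD8 T cells, was at 27.4 against 9.50 CPM and at 137 against 16.1 CPM, in 5 and 7 cells. With BM only Cd8a was at 64.4 against 2.04 CPM, from UMIs in 5 of the cells with an iNKT segment. The part of such cells in these differences was not tested. Ctla4 was lower in cells with an iNKT segment, at 404 against 474 CPM and 326 against 416 CPM. Ikzf2 was at 493 against 548 CPM and 352 against 545 CPM. Actn1 (24.2 against 66.5 CPM, then 54.2 against 41.0 CPM) and Lag3 (90.2 against 46.8 CPM, then 92.5 against 127 CPM) stood on opposite sides in the libraries.

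Compared with the Klrg1+ Foxp3+ cells, the Klrg1-negative ones had more transcripts of Tcf7 and Bach2 and fewer of Il1rl1, Il10 and Areg. The contrast follows the rule, so it is a description. Of 9534 genes measured, 71 (0.745%) were higher and 65 (0.682%) lower in both libraries, or 1.43% either way. Tcf7, a factor of naive and central T cells, was at 114 CPM (101 to 127) and 134 CPM (123 to 145) in Klrg1-negative cells and at 31.7 CPM (22.0 to 44.4) and 52.1 CPM (42.7 to 63.0) in Klrg1+ ones, log2 ratios of 1.84 (1.33 to 2.40) and 1.36 (1.06 to 1.67). Bach2, a repressor of effector genes, was at 29.2 and 59.4 CPM against 11.2 and 23.4 CPM, log2 ratios of 1.38 (0.50 to 2.39) and 1.34 (0.89 to 1.82).

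The genes that were highest over Klrg1+ cells were mostly of low abundance. Ntrk3, a neurotrophin receptor, was at 17.9 and 22.9 CPM against 2.80 and 4.87 CPM, and Kbtbd12 at 33.9 and 33.4 CPM against 3.73 and 9.25 CPM. Actn1, an actin cross-linker, was at 51.0 CPM (42.9 to 60.2) and 49.4 CPM (43.0 to 56.6), against 14.0 CPM (7.84 to 23.1) and 16.1 CPM (11.1 to 22.6). Ccr7, the homing receptor for lymph nodes and the thymic medulla, was at 224 CPM (207 to 243) and 332 CPM (314 to 349), against 159 and 147 CPM; its log2 ratio of 0.50 (0.25 to 0.75) passed 2-fold with BM + Spl alone, at 1.17 (0.99 to 1.36).

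Some effector and tissue genes lay on the other side. Of the 30 measured genes of that list, 4 were lower in both libraries (among them Areg, Il10 and Il1rl1) and 0 higher, with medians of -0.50 and -0.75 beside 0.01 and -0.04 over all genes, and 24 were lower in both at any size, as were 3250 of all 9534 genes. Il1rl1 (ST2, chr1:40429570-40465415), the interleukin-33 receptor, was at 24.4 CPM (18.9 to 31.0) and 14.4 CPM in Klrg1-negative cells against 91.5 CPM (74.3 to 112) and 66.7 CPM (56.0 to 78.9) in Klrg1+ ones. Areg, a growth factor of tissue repair, was at 35.0 and 17.0 CPM against 93.4 and 109 CPM, log2 ratios of -1.42 and -2.67 (-3.08 to -2.28). Il10, the suppressive cytokine, was at 6.19 CPM (3.61 to 9.92) and 9.46 CPM (6.76 to 12.9) against 22.4 and 45.3 CPM. Il10 was found in 16 and 25 Klrg1-negative cells, and with thinned cells its ratio with BM only turned to 0.36 (-2.04 to 3.66).

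Other transcripts that were lower in Klrg1-negative cells were Cxcl2, a neutrophil chemokine, at 12.4 and 5.20 CPM against 85.0 and 37.5 CPM, Metrnl, a secreted factor, at 3.64 and 8.28 CPM against 38.3 and 33.1 CPM, and Pcsk1, a prohormone protease, at 25.5 and 10.4 CPM against 93.4 and 40.9 CPM. Ltb4r1, the receptor for leukotriene B4, was at 25.9 and 18.7 CPM against 77.5 and 68.2 CPM. Each of these genes was lower in both libraries with an interval below 0, although 1 cell held 38.2% and 54.5% of the Cxcl2 UMIs of the Klrg1-negative cells. Among the 19 measured suppression genes 3 were lower (Areg, Fgl2 and Il10) and 0 higher, with medians of -0.48 and -0.77. Ctla4 was lower by less than 2-fold, with log2 ratios of -0.73 (-0.86 to -0.60) and -0.77 (-0.88 to -0.67), and Penk, the precursor of the enkephalins, was at 843 and 1334 CPM against 1451 and 2290 CPM.

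**Figure D4:**
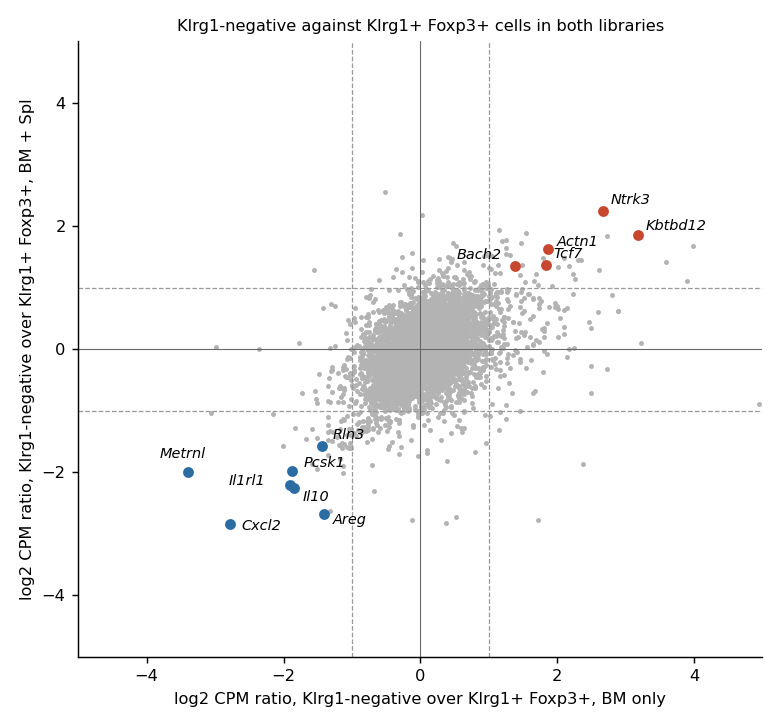
Log2 ratio of CPM, Klrg1-negative over Klrg1+ Foxp3+ cells, in the BM only library (horizontal axis) and the BM + Spl library (vertical axis), for 7992 genes with at least 100 UMIs over the cells compared, genes of the rule left out. Dashed lines mark 2-fold. Tcf7, Bach2, Actn1, Ntrk3 and Kbtbd12 lie past 2-fold higher in both libraries and Il1rl1, Il10, Areg, Cxcl2, Metrnl, Pcsk1 and Rln3 past 2-fold lower.

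Of the 22 measured cell cycle genes 0 passed 2-fold in both libraries. At any size 20 were higher in both than in Klrg1+ cells and 0 lower, with medians of 0.73 and 0.61, while 2931 of all 9534 genes were higher in both and 3250 lower. The median with BM only was 0.23 after thinning to 2000 UMIs, and that with BM + Spl was 0.32 without possible doublets. Top2a, a topoisomerase of dividing cells, was at 68.1 CPM (58.7 to 78.6) and 91.3 CPM (82.4 to 101) against 28.0 CPM (18.9 to 40.0) and 64.3 CPM (53.8 to 76.2). A UMI of Mki67 or Top2a was found in 25.6% (21.5 to 30.0) and 33.2% (28.8 to 37.8) of Klrg1-negative cells, and in 17.8% (12.7 to 24.0) and 24.2% (19.3 to 29.7) of Klrg1+ cells. After thinning to 2000 UMIs the shares were 12.6% and 13.1% against 9.24% and 12.9%. The intervals of both groups overlapped in both libraries, before thinning as well as at 2000 UMIs. Foxp3-negative T cells had 5.07% and 8.26% at that depth.

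Of 20 interferon genes 0 passed 2-fold against Klrg1+ cells in both libraries. At any size 15 were lower in both, with medians of -0.34 and -0.56, beside the 3250 of 9534 among all genes. After thinning to 2000 UMIs the interferon medians were 0.15 and -0.14, so the side with BM only turned. Of 16 dissociation stress genes 13 were lower in both at any size, with medians of -0.54 and -0.68. Of these, Atf3, Ier3 and Zfp36 passed 2-fold in both libraries, with Zfp36, an RNA-binding protein of early responses, at 918 and 418 CPM against 1875 and 1211 CPM. The part of stress genes in the contrast with Klrg1+ cells was not tested.

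With GvHD the Klrg1-negative Foxp3+ cells had higher Upp1, Nkg7, Lag3 and H2-Eb1 and lower Tff1, Ccr6, Ccr4 and Hspa1b. The question is how these cells differed between recipients with and without splenic cells, and the rule did not use it. Of 8748 genes measured, 116 (1.33%) were higher with BM + Spl and 156 (1.78%) lower, or 272 (3.11%) either way, with a median log2 ratio of -0.08. Without the 6 and 23 cells that had a UMI of Siglech, a gene of plasmacytoid dendritic cells, 81 of 8539 genes (0.949%) were higher and 156 (1.83%) lower, or 2.78% either way. Several of the highest genes before this step were those of such cells, among them Ly6d, Mzb1, Pld4, Cox6a2 and Iglc3.

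Upp1 (chr11:9118103-9136170), an enzyme that splits uridine, had a high ratio spread over many cells. It was at 2.55 CPM (1.03 to 5.26) with BM only, in 3 cells, and at 52.0 CPM (45.4 to 59.4) with BM + Spl, in 67 cells, a log2 ratio of 4.35 (3.28 to 5.68). Klrg1+ Foxp3+ cells differed the same way, from 1.87 to 99.8 CPM, where the 2 UMIs with BM only gave a log2 ratio of 5.74 (3.87 to 8.80), and Foxp3-negative T cells from 1.29 to 3.79 CPM. Upp1 was thus rare in all 3 groups of cells with BM only.

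Ifitm1, an interferon-inducible membrane protein, was at 4.01 CPM and 79.2 CPM (71.0 to 88.2), in 2 and 19 cells. Of its UMIs with BM only 90.9% lay in 1 cell. Igkv6-15, an immunoglobulin segment, had 0 UMIs and 29.8 CPM, but 99.2% of its UMIs lay in 1 cell. Values of this kind describe single cells rather than the group.

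Nkg7, a protein of cytotoxic granules, was at 130 CPM (117 to 144) and 339 CPM (322 to 357), in 74 and 205 cells, a log2 ratio of 1.38 (1.22 to 1.55). In Klrg1+ cells its ratio was 1.13, while in Foxp3-negative T cells it went from 758 to 205 CPM, a ratio of -1.88. Lag3 (chr6:124904361-124911705), an inhibitory receptor for class II, was at 52.5 CPM (44.3 to 61.8) and 126 CPM (115 to 137), a log2 ratio of 1.26 (0.99 to 1.54), and was higher in Klrg1+ cells (2.52) and Foxp3-negative T cells (2.09) too. H2-Eb1, a chain of class II, was at 42.6 CPM (35.3 to 51.1) and 186 CPM (173 to 199), in 47 and 182 cells, and its ratio was 2.24 without Siglech+ cells. Iigp1, an interferon-inducible GTPase, went from 14.6 to 54.9 CPM and Tubb2a, a tubulin, from 12.4 to 53.5 CPM.

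Ccl5, a chemokine of activated T cells, was at 344 CPM (323 to 367) and 546 CPM (524 to 569), and Penk at 843 CPM (809 to 878) and 1334 CPM (1299 to 1369). Penk lay in 121 and 192 cells, with up to 152 and 280 UMIs in a cell. In Foxp3-negative T cells Ccl5 was lower with BM + Spl, with a log2 ratio of -1.65 against 0.67 in Klrg1-negative Foxp3+ cells.

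Resting and central genes were divided. Of 17 measured, 4 were higher with BM + Spl (Bach2, Bcl2, Ccr9 and Ly6c1) and 0 lower, with a median of 0.24. Without Siglech+ cells Ccr9, which is also a marker of plasmacytoid dendritic cells, had too few UMIs to be measured (6 and 23 in the Klrg1-negative cells), and 3 of 16 were higher. Bach2 (chr4:32238804-32586108) was at 29.2 CPM (23.1 to 36.3) and 59.4 CPM (52.3 to 67.2), in 49 and 125 cells, and its ratio was 1.06 in Klrg1+ and 0.12 in Foxp3-negative T cells. Bcl2, a survival factor, was at 14.6 CPM (10.4 to 19.8) and 32.4 CPM (27.2 to 38.3). Ccr7 was higher by less than 2-fold, with a log2 ratio of 0.57 (0.43 to 0.70). Klf2 and Il7r stood on the other side, at -0.31 (-0.46 to -0.15) and -0.38 (-0.53 to -0.23).

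A few effector and tissue genes were lower with GvHD. Of 29 measured, 3 were lower (among them Areg and Ccr4) and 0 higher, with a median of -0.52 beside -0.08 over all genes. At any size 24 of the 29 were lower, beside 5130 of all 8748 genes, and after thinning the median was -0.31. In Klrg1+ and Foxp3-negative T cells the medians of the list were -0.25 and -0.16; the difference between these groups was not tested. Areg was at 35.0 CPM (28.3 to 42.7) and 17.0 CPM (13.3 to 21.4), a log2 ratio of -1.04 (-1.50 to -0.58), with 0.22 in Klrg1+ cells. Icos, a costimulatory receptor, was at 630 and 381 CPM, and Prdm1 (Blimp-1), a factor of effector regulatory T cells, at 59.8 and 30.7 CPM. Maf and Rora, factors of tissue T cells, were at 169 and 281 CPM with BM only and at 91.5 and 159 CPM with BM + Spl.

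Of the 22 measured migration genes, 3 were lower (among them Ccr4 and Ccr6) and 1 was higher (Ccr9), with a median of -0.30. Without Siglech+ cells 0 of 21 were higher, since Ccr9 was no longer measured, and 3 were lower. Ccr6 (chr17:8236043-8257141), the receptor for Ccl20, was at 217 CPM (200 to 235) in 257 cells and 99.1 CPM (89.8 to 109) in 172 cells, a log2 ratio of -1.13 (-1.31 to -0.95). Ccr4, which guides thymocytes into the medulla, was at 75.1 CPM (65.2 to 86.0) and 32.4 CPM (27.2 to 38.3). In Klrg1+ cells both were lower as well (-1.35 and -1.45), while in Foxp3-negative T cells their ratios were -0.20 and 0.52. Ccr8, a receptor of tissue regulatory T cells, was at 198 and 222 CPM.

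Tff1 was lower with GvHD, at 899 and 314 CPM, a log2 ratio of -1.52 (-1.62 to -1.42), and -1.70 in Klrg1+ cells. Nrn1, a neuronal surface protein also known on regulatory T cells, was at 71.4 CPM (61.8 to 82.1) in 78 cells and 22.0 CPM (17.8 to 26.9) in 38 cells. Krt83, a hair keratin, was at 66.7 and 26.3 CPM, Ncmap at 59.4 and 22.2 CPM and Ier5l at 54.3 and 19.2 CPM. For Tff1 and Nrn1 the ratio in Foxp3-negative T cells was of the other sign, 0.51 and 1.41.

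**Figure D5:**
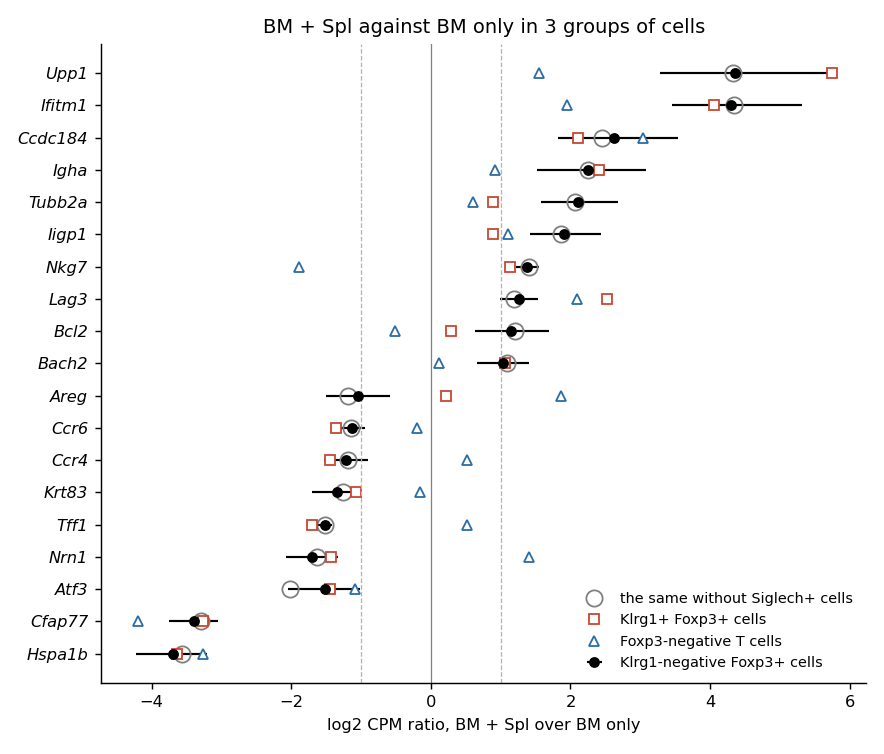
Log2 ratio of CPM, BM + Spl over BM only (horizontal axis), for 19 genes in Klrg1-negative Foxp3+ cells (black, with exact conditional binomial 95% intervals), the same cells without those with a Siglech UMI (grey rings), Klrg1+ Foxp3+ cells (squares) and Foxp3-negative T cells (triangles). Dashed lines mark 2-fold, and the square of Ifitm1 is a lower bound against 0 UMIs. Squares share the side of the black points for every gene shown but Areg, while the triangles of Nkg7, Bcl2, Areg, Ccr4, Tff1 and Nrn1 lie on the other side of 0.

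Few genes of the Foxp3+ identity passed 2-fold between conditions. The regulatory T cell core list had 1 of 21 genes higher (Plagl1) and 0 lower, with a median of -0.15. At any size 16 of the 21 were lower and 5 higher, beside 5130 and 3618 of all 8748 genes. Ctla4, Ikzf2 and Tnfrsf18 had log2 ratios of -0.15 (-0.26 to -0.05), -0.14 (-0.24 to -0.05) and -0.07 (-0.15 to 0.02). Itgae (CD103), the integrin that binds E-cadherin, was at 429 CPM (405 to 454) and 274 CPM (258 to 290), and Lrrc32 at 23.7 and 44.0 CPM. Of the 18 suppression genes 1 was higher (Lag3) and 1 lower (Areg), with a median of -0.09, and Ebi3, a subunit of interleukin-35, was at 129 and 78.5 CPM.

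The other lists held few genes past 2-fold between conditions. Among TNF receptor and NF-kB genes (24 measured), TCR response genes (14), glycolysis genes (15), CD4 and CD8 lineage genes (10) and cell cycle genes (22) there were 0 in either direction, with medians between -0.19 and 0.25. At any size 19 of the 22 cell cycle genes were higher with BM + Spl and 3 lower, beside 3618 and 5130 of all 8748 genes. IL-2 receptor and STAT5 genes had 1 of 14 higher (Bcl2), with a median of -0.23, and the BCL2 family had 1 of 13, the same gene, with a median of 0.02. Of 16 costimulatory and inhibitory receptors Lag3 was higher and Cd226, an activating receptor that shares its ligand with Tigit, was lower (82.0 and 40.0 CPM), with a median of -0.15. Without Siglech+ cells the log2 ratio of Cd226 was -0.97 in place of -1.04, so it no longer passed 2-fold. The 14 iNKT program genes had a median of -0.01, with Nkg7 the gene that was higher. Interferon genes had 1 of 19 higher (Ifitm3, an antiviral membrane protein, at 55.0 and 122 CPM), with a median of 0.19. Of 4 IL-1 family genes measured Il18rap, a chain of the interleukin-18 receptor, was lower, at 29.9 and 12.8 CPM.

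Dissociation stress genes had a median below 0 in all 3 groups of cells compared. Of 15 measured in Klrg1-negative Foxp3+ cells, 6 were lower (Atf3, Dusp1, Fos, Hspa1a, Hspa1b and Zfp36) and 0 higher, with a median of -0.79, and the medians in Klrg1+ and Foxp3-negative T cells were -0.47 and -1.08. Hspa1b, a heat shock protein, was at 113 CPM (101 to 127) and 8.75 CPM (6.16 to 12.1), and in Foxp3-negative T cells at 266 and 27.6 CPM. Cfap77, a gene of cilia, was lower by a similar amount, at 199 and 18.9 CPM. Since handling and condition both went with the library, they cannot be told apart, and the part of stress genes in the other ratios was not tested.

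Within each library the Klrg1-negative Foxp3+ cells were not uniform. The cells with a Ccr7 UMI (185 and 255) were deeper than those without, with medians of 6633 and 9730 UMIs against 4076 and 4812.5. They had more Tcf7, at 152 against 65.7 CPM with BM only and 171 against 49.3 CPM with BM + Spl, and more Actn1, at 72.7 against 23.8 CPM and 65.2 against 13.9 CPM. Il1rl1 was at 16.4 against 34.5 CPM and 9.90 against 24.7 CPM. Foxp3 was at 372 against 542 CPM and 337 against 495 CPM. The rule gave every cell at least 1 Foxp3 UMI, which weighs more in the shallower cells, so these Foxp3 values are a description. Ccr2, a receptor of tissue homing, was at 53.7 against 119 CPM and 26.3 against 96.4 CPM. The Ccr7+ cells thus stood toward the Tcf7 and Actn1 side of the contrast with Klrg1+ cells, though none of them had Klrg1.

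Cells with Tff1 (281 and 191) had less Tcf7, Bach2 and Actn1 than those without. With BM only they were deeper, with a median of 5498 against 3945 UMIs. Tcf7 was at 83.2 against 186 CPM and 95.4 against 165 CPM, Bach2 at 16.0 against 60.5 CPM and 23.8 against 88.0 CPM, and Actn1 at 29.5 against 102 CPM and 28.6 against 66.2 CPM. Foxp3, which chose all of these cells, was at 442 against 459 CPM and 393 against 380 CPM, so its values are a description. Havcr2 (TIM-3), an inhibitory receptor, was at 76.5 against 23.5 CPM and 64.1 against 21.8 CPM, and Pcsk1 at 33.6 against 6.17 CPM and 20.1 against 2.56 CPM. Il1rl1 was at 17.6 against 40.8 CPM with BM only and 15.9 against 13.2 CPM with BM + Spl.

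Cells with Nkg7 (74 and 205) had more Xcl1, Ifng, Ccl4 and Klrd1. They were deeper than the others, with medians of 7590.5 and 9018 UMIs against 4447 and 5822. Cd8a, a marker of CD8 T cells and thymocytes, was at 78.6 against 4.24 CPM with BM only, in 7 of the Nkg7+ cells, and had 115 UMIs in 22 of them against 11 UMIs in the others with BM + Spl. The part of depth or of such cells was not tested. Xcl1 was at 234 against 2.83 CPM and 97.4 against 6.74 CPM, Ifng at 115 against 3.77 CPM and 37.4 against 7.26 CPM, and Ccl4 at 89.8 against 7.54 CPM and 111 against 16.6 CPM. Klrd1 was at 128 against 5.66 CPM with BM only and at 45.7 against 23.3 CPM with BM + Spl, in 22 and 34 of the Nkg7+ cells. Ccl5 was at 537 against 288 CPM with BM only and at 466 against 642 CPM with BM + Spl. Cells with Penk had higher Xcl1 as well, at 97.2 against 16.7 CPM with BM + Spl. With BM only it was at 99.0 against 36.9 CPM, from UMIs in 6 of the Penk+ cells. The Penk+ cells had a median of 5469 against 4688 UMIs in that library. These splits by 1 gene were made after the values had been seen and have no test.

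Markers of dendritic cells, B cells and thymic epithelium summed to more than in Foxp3-negative T cells in both libraries. Those of macrophages and CD4+CD8+ thymocytes summed to less. Of 6 macrophage markers 5 were at 0 in both libraries (Adgre1, C1qa, C1qb, Fcgr1 and Lyz2), with 4 and 3 UMIs of Csf1r, in 1 cell of each library. The 6 B cell markers summed to 31.0 and 46.4 CPM, against 27.3 and 23.8 CPM in Foxp3-negative T cells. Cd79b led at 28.8 and 17.0 CPM, and Ms4a1 was at 0 with BM only. The 5 plasmacytoid dendritic cell markers were all detected and summed to 379 and 742 CPM, against 266 and 485 CPM in Foxp3-negative T cells. Bst2, an interferon-inducible gene that T cells also express, led at 236 and 440 CPM. A Siglech UMI was found in 1.40% and 5.19% of Klrg1-negative Foxp3+ cells, against 0.669% and 1.58% of Foxp3-negative T cells. Siglech itself was at 25.1 CPM in 6 cells and 78.8 CPM in 23 cells, and these cells had medians of 11282.5 and 13627 UMIs against 4872.5 and 6799 in the others. The 5 markers of conventional dendritic cells summed to 31.7 and 37.8 CPM, against 11.3 and 10.1 CPM in Foxp3-negative T cells. Those of thymic epithelium, led by Epcam, summed to 17.9 and 36.4 CPM, against 5.33 and 7.14 CPM. Erythroid markers summed to 0.364 and 0.473 CPM. The 6 markers of CD4+CD8+ thymocytes summed to 57.9 and 88.9 CPM, against 62.6 and 139 CPM in Foxp3-negative T cells. Cd8b1 led, with Ptcra at 0 with BM only and Rag2 at 0 with BM + Spl. With Siglech+ cells left out, the counts of genes past 2-fold were those given above, and Upp1 (4.33), Nkg7 (1.40), Lag3 (1.19), Tff1 (-1.51) and Ccr6 (-1.14) had nearly the same ratios.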

How the data were processed

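Thymic TCRβ+ CD1d-tetramer+ cells of 1 library per group were sequenced on the 10x Genomics platform. The authors deposited unnormalized UMI counts per gene and barcode (mm10 per the labels, with Cell Ranger 7.0.0 in the file headers of both BMT libraries and 3.0.2 in that of the C57BL/6 library), and the labels name Seurat 4.0.2 for their own steps. Cells with more than 200 and fewer than 6000 genes and under 10% of UMIs on mitochondrial genes were kept, and doublets were not removed. Foxp3-negative T cells had 0 Foxp3 UMIs and at least 1 CD3 UMI. The cells described, the 24 gene lists (293 of 294 genes found) and the splits were chosen with earlier results of these data known.

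Counts were summed per group of cells and library and given as CPM. A gene was measured with at least 50 UMIs over the cells compared. Against Klrg1+ and Foxp3-negative cells it was called past 2-fold in both libraries. A group at 0 was set to 3 counts for a bound. Named were the 7 rule genes, the 12 genes of largest ratio each way with at least 100 UMIs (no rule, TCR segment, ribosomal, mitochondrial, Gm or Rik genes), and from each list those past 2-fold and the most abundant ones. Further genes were named after their values were seen. Tested on simulated Poisson counts of 8754 genes for BM + Spl over BM only, the steps called 100% of 200 genes changed 4-fold and 0.164% of the others. These counts had no added spread between cells or libraries. The 0.164% is thus not a rate of false calls in the data. Gene positions are those of GENCODE M21 (GRCm38). The alternatives were other rules for the cells, thinning to 2000 UMIs, no filter, no possible doublets, CD3+ cells only, other CPM and other minimum counts. Python 3.11.15, numpy 2.4.6, scipy 1.17.1, pandas 2.3.3 and matplotlib 3.10.9 were used. Some genes of the lists are counted but not reported by name here.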

Additional observations from a re-analysis of the deposited data

Results flagged for a closer look

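Some genes differed between BM only and BM + Spl one way in Klrg1-negative Foxp3+ cells and the other way in Foxp3-negative T cells, past 2-fold in both. The difference between the cell groups was not tested for any of them. Nkg7 had a log2 ratio of 1.38 in the former and -1.88 in the latter, and Ccl4, a chemokine, 1.37 and -1.34. Nrn1 had -1.70 and 1.41, and Areg -1.04 and 1.86. Ccl1, also a chemokine, had -1.30 and 5.55, but 97.4% of its UMIs with BM only lay in 1 Klrg1-negative Foxp3+ cell. Fcer1g (1.03 and -1.42) and Cd209d (1.38 and -1.01) had ratios of -0.53 (-1.27 to 0.22) and -1.53 (-4.15 to 0.70) in Klrg1-negative Foxp3+ cells once cells with a Siglech UMI were left out, intervals that hold 0. These rest on 33 and 33 UMIs for Fcer1g and on 6 and 3 for Cd209d.

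For 5 genes the ratio of Klrg1-negative over Klrg1+ cells was above 0 with BM only and below 0 with BM + Spl. This difference was not tested either. The log2 ratios were 1.45 and -1.01 for Cxxc5, 1.26 and -1.14 for Cybb, 1.15 and -1.31 for Iglc3, 1.02 and -1.09 for Mpeg1 and 1.17 and -1.02 for Rnase6. With BM only the intervals of Cxxc5 (-0.29 to 3.84), Iglc3 (-0.64 to 3.56) and Mpeg1 (-0.38 to 2.76) hold 0. In each case the Klrg1+ cells with BM only held few UMIs, between 3 and 8. Without cells with a Siglech UMI the ratios were above 0 in both libraries for Cxxc5, Cybb (2.35 and 0.67) and Rnase6 (0.52 and 1.12), from between 5 and 23 UMIs in the Klrg1-negative cells, while Iglc3 and Mpeg1 kept between 0 and 3 UMIs in the Klrg1-negative cells of a library.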

How the results depend on the processing

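No paired analysis was possible because each condition had 1 library and the labels carry no replicate numbers. Of the values recomputed under the alternatives, 44 of 54 for shares, 343 of 360 for list medians, 55 of 72 for counts of genes and 1285 of 1479 for named genes stayed within their range, and 7 reversed. After thinning to 2000 UMIs alone, 53 values of named genes stayed within their range, 90 moved out of it and 4 reversed. The shares of Klrg1-negative Foxp3+ cells (BM only and BM + Spl) were 5.06% and 6.12% with at least 2 Foxp3 UMIs, 6.37% and 7.20% with at least 2 of the 5 genes and 5.08% and 5.30% after thinning. Foxp3+ cells without Klrg1 made up 66.5% and 59.1% with at least 2 of the 5 genes and 74.9% and 67.3% after thinning. Fewer UMIs reach a minimum after thinning, and the counts of genes past 2-fold follow the minimum. Between conditions there were 36 higher and 42 lower genes after thinning, 69 and 70 with a minimum of 100 UMIs, 247 and 320 with 20, and 610 and 861 with none. Against Klrg1+ cells there were 18 and 19 after thinning, 41 higher with a minimum of 100, 115 and 116 with 20, 124 and 138 with none, and 40 lower by the mean of per-cell CPM. Against Foxp3-negative T cells 333 were lower after thinning.

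After thinning, list medians between conditions were -0.31 (effector) and 0.42 (interferon). Against Klrg1+ cells they were -0.24 (effector), 0.23 (cell cycle) and 0.15 (interferon) with BM only and -0.54 (effector) and -0.14 (interferon) with BM + Spl, so the interferon median with BM only did not keep its sign. Against Foxp3-negative T cells the cell cycle medians were 0.31 and 0.041. By the mean of per-cell CPM, medians against Klrg1+ cells were -0.022 (interferon) with BM only and -0.56 (effector), -0.29 (interferon) and 0.42 (iNKT program) with BM + Spl. Without possible doublets they were 0.32 (cell cycle) and 0.22 (iNKT program) against Klrg1+ cells with BM + Spl and 1.35 (cell cycle) against Foxp3-negative T cells with BM only. The iNKT program median against Klrg1+ cells with BM + Spl was otherwise -0.19. With no requirement on the 5 genes the cell cycle median between conditions was 0.31. Single genes that reversed were Ccl1 (0.51 with at least 2 Foxp3 UMIs, 3.85 thinned), Cd7 (0.33), Il10 against Klrg1+ cells with BM only (0.36) and Nbn against them with BM + Spl (-0.17), all thinned, and Tyrobp (-0.90) and Klk1 (-2.70) without Siglech+ cells, an alternative chosen after seeing the data. Apart from the minimum, the cause was not tested. Of 134 named genes past 2-fold that could be thinned, 130 kept their sign and 105 stayed past 2-fold. Genes with few UMIs, such as Il10, were not resolved at this depth.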
